A study of Mus musculus with 9 samples.

Results

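Fos, Fosb, Jun, Junb, Egr1, Atf3, Btg2, Ier2, Myc and Nr4a1 are immediate early genes, a class that was chosen by gene symbol from poly(A) RNA sequencing of 9 mouse hearts. All 10 symbols were found, each once, among the 43154 genes listed in every heart, and 9 of the 10 were at 1 FPKM (a read density per length of transcript, scaled to sequencing depth) or more in at least 2 hearts and so were tested. Fosb stayed under that level in every heart and was not tested. The hearts came from C57BL/6 mice. Calcineurin transgenic mice given JIB-04 gave 2 hearts, heart 1 at postnatal day 125 and heart 2 at day 158. Calcineurin transgenic mice given vehicle gave 3 hearts, heart 1 at day 125 and hearts 2 and 3 at day 158. Wild type mice given vehicle gave 4 hearts, hearts 1 and 2 at day 125 and hearts 3 and 4 at day 158. JIB-04, an inhibitor of Jumonji histone demethylases, was given at 50 mg/kg on 3 occasions a week from an age of 4 weeks, and vehicle was given on the same schedule. The transgene is calcineurin A under the alpha myosin heavy chain promoter, which is active in cardiomyocytes, and its mice develop enlarged hearts. Wild type hearts exposed to JIB-04 were not analysed here, so the drug can be compared only within the transgenic hearts. The comparisons ask how the transgene and then the drug moved this gene class, and how far single hearts departed from their group.

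Immediate early genes are transcribed within minutes of a signal, without new protein synthesis, and their short-lived transcripts fade soon after. Growth factors, stretch, calcium entry and stress reach them through MAP kinases and through transcription factors such as serum response factor, the ternary complex factors and CREB. In the heart they are known for their rise under pressure overload, and also for responding to anaesthesia, ischaemia and the time between death and freezing. Calcineurin is a calcium-activated phosphatase that drives NFAT into the nucleus, and the NR4A genes are among the known NFAT targets in lymphocytes.

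The promoters of the members are shown first because the class is defined by how it is switched on. Windows of 300 bases, from 250 before to 50 after the start of transcription, were taken from RefSeq (GRCm38.p6). They were searched for 7 of the 10 members: Fos, Fosb, Jun, Junb, Atf3, Btg2 and Nr4a1. No window was at hand for Ier2 or Myc, and Egr1 was left out of the search. The windows of Fos, Junb, Btg2 and Nr4a1 are printed 5′ to 3′. Junb and Btg2 were higher in transgenic hearts, Nr4a1 was lower and Fos passed no test of the transgene. Capitals mark matches on either strand to TGACGTCA (the full cAMP response element), TGACG (its shorter core, which the full element contains on both strands), GCGNGGGCG (the motif of EGR1) and TATAAA. Fos lies on the plus strand at chr12:85473640-85473939, Junb on the minus strand at chr8:84978699-84978998, Btg2 on the minus strand at chr1:134079106-134079405 and Nr4a1 on the plus strand at chr15:101266596-101266895.
Fos: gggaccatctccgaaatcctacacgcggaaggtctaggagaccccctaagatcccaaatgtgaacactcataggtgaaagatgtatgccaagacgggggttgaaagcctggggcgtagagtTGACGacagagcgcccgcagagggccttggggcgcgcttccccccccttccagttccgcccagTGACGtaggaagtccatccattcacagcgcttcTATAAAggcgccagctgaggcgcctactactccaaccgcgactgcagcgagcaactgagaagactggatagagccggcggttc
Junb: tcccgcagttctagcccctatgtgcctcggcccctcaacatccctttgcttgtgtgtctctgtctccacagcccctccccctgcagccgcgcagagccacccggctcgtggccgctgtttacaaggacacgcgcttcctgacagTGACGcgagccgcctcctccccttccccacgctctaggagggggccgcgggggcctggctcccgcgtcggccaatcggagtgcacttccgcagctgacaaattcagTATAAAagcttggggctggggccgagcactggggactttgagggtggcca
Btg2: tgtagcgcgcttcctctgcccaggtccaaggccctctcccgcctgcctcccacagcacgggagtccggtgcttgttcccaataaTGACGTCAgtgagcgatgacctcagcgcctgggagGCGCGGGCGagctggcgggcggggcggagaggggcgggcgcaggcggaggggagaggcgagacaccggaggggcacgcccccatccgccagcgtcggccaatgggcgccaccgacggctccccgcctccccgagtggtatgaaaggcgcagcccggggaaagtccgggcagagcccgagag
Nr4a1: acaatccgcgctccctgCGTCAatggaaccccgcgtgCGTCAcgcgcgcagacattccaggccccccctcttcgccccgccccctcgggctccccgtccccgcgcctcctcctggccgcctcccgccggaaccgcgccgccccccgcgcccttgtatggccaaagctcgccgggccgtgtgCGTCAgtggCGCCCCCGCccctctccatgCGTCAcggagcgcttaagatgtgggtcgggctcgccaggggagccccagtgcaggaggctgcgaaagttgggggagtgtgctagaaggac

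TGACG was present in 6 of the 7 member windows, all but that of Jun, against 20.8% of the 32851 windows in the table. In Fos the matches began 129 and 66 bases before the start site, with TATAAA 33 bases before it. Nr4a1 held 4 matches to TGACG, the most of the 7. The full TGACGTCA was found in Btg2 alone of the 7, 166 bases before the start, and in 1.79% of all windows. GCGNGGGCG was found in Btg2, Fosb and Nr4a1, against 5.55% of all windows, and TATAAA in Fos and Junb, against 13.6%. GGGCGG, the motif of SP1, was in 6 of the 7 windows, against 35.7%, and GGAAA, the core that NFAT binds, was in Btg2 and Jun, against 61.3%. No match to TGANTCA, the AP-1 site, or to the CArG box of serum response factor was in any of the 7 windows. Of all windows, 7.81% and 1.63% held them. Bases further than 250 before the start were not searched, nor was Egr1, so sites there would not have been seen. These are letter matches in a short window, and nothing about binding was measured.

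Single-heart conditions that touch the values were as follows. Relative depth, read from the steps between low values, was 1.0 to 1.5 times that of wild type heart 1. Mitochondrial genes held up to 30.9% of the summed FPKM. JIB-04 heart 2 and transgenic vehicle heart 3 stood apart, with mt-Atp6, mt-Co3 and mt-Atp8 at 28960 to 50190 FPKM, while the other 7 hearts list each of these genes at 0. Ppp3ca, the calcineurin A gene, spanned 1434 to 1536 FPKM under JIB-04, 199 to 1762 FPKM in transgenic vehicle hearts and 22.9 to 24.8 FPKM in wild type hearts. Its low value of 199 FPKM belonged to transgenic vehicle heart 3. All 8 cardiomyocyte markers were found above 0 in each heart. Cell type markers differed between genotypes: 5 of 8 cardiomyocyte markers, 5 of 6 endothelial markers and 3 of 6 smooth muscle and pericyte markers were lower, and 4 of 6 fibroblast markers and 1 of 6 smooth muscle and pericyte markers higher, in transgenic vehicle than in wild type hearts at a limma adjusted p under 0.05. In bulk tissue, fewer cells of a type and less RNA per cell cannot be told apart.

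**Figure D1:**
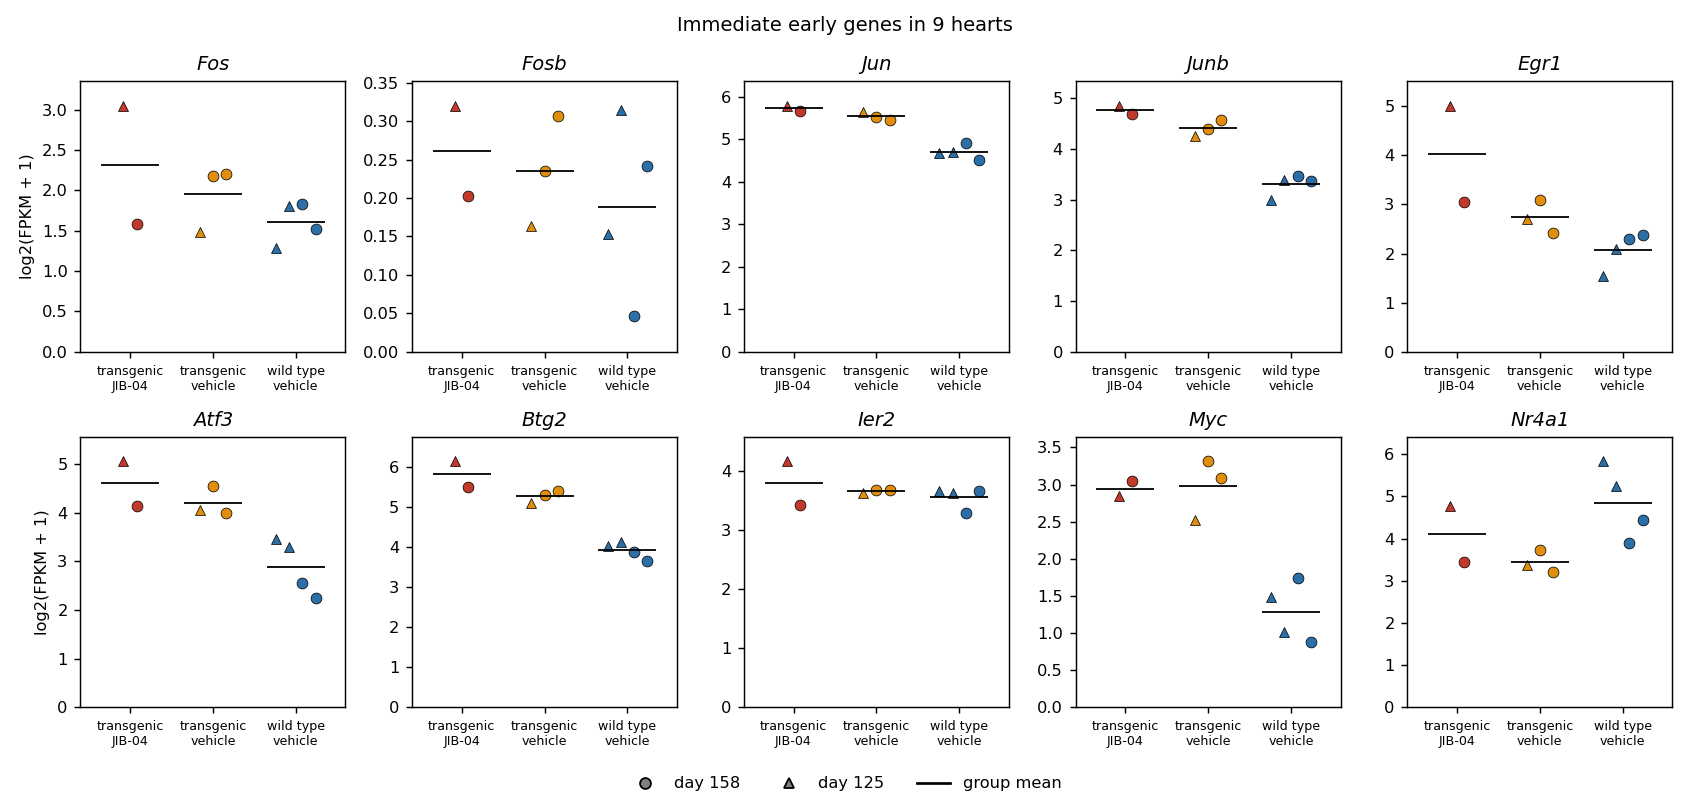
Level of each gene as log2(FPKM + 1) in each of the 9 hearts, with a scale of its own for each gene, triangles for day 125, circles for day 158 and a line at the group mean. All 5 transgenic hearts lie above all 4 wild type hearts for Jun, Junb, Egr1, Atf3, Btg2 and Myc, and the day 125 JIB-04 heart is the highest of all for every gene shown but Myc and Nr4a1.

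Jun and Junb were higher in every transgenic heart than in any wild type heart, while Fos and Fosb were low and their groups overlapped. AP-1 is a dimer of a JUN protein with a FOS, ATF or MAF partner, and Jun encodes its founding member. Jun was at 54.4 and 49.6 FPKM in JIB-04 hearts 1 and 2, against 49.1, 45.2 and 42.8 FPKM in transgenic vehicle hearts 1 to 3 and 24.7, 25.1, 29.2 and 21.7 FPKM in wild type hearts 1 to 4. The transgenic hearts did not overlap the wild type hearts, and the 2 JIB-04 hearts were the highest. Jun rose in transgenic vehicle relative to wild type hearts by 0.85 ± 0.10 on the log2 scale (standard error; limma adjusted p = 0.00057), and its means were 45.7 ± 3.18 and 25.2 ± 3.05 FPKM (SD, n = 3 and 4). Junos, an antisense gene that shares 232 bases of exon with Jun, was at 0.140 to 0.616 FPKM, so reads from it are few beside those of Jun, although the library kit does not keep strand.

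Junb, which competes with JUN for the same partners, was at 27.9 and 24.9 FPKM in JIB-04 hearts 1 and 2, against 18.0, 20.1 and 22.9 FPKM in transgenic vehicle hearts and 6.94, 9.40, 9.997 and 9.30 FPKM in wild type hearts. All 3 groups were apart from each other, with the JIB-04 hearts on top. The rise in transgenic vehicle over wild type hearts was 1.09 ± 0.12 (limma adjusted p = 0.00042), with means of 20.3 ± 2.45 and 8.91 ± 1.35 FPKM (SD, n = 3 and 4).

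Fos, the classic partner of JUN, was at 7.27 and 1.98 FPKM in JIB-04 hearts 1 and 2, against 1.81, 3.53 and 3.59 FPKM in transgenic vehicle hearts and 1.44, 2.51, 2.54 and 1.87 FPKM in wild type hearts. JIB-04 heart 1 was the highest of the 9, and the remaining hearts of the 3 groups overlapped. The difference between transgenic vehicle and wild type hearts was 0.36 ± 0.35, with a 95% interval of -0.46 to 1.17 (limma adjusted p = 0.46). Fosb, a close relative of Fos, was at 0.248 and 0.151 FPKM in JIB-04 hearts, 0.120, 0.177 and 0.236 FPKM in transgenic vehicle hearts and 0.112, 0.243, 0.0324 and 0.183 FPKM in wild type hearts. It was near the limit of detection throughout, and when genes of every level were fitted its difference between transgenic vehicle and wild type hearts was 0.05 ± 0.07 (limma adjusted p = 0.71).

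Atf3, a stress-induced factor that pairs with JUN proteins, was at 32.4 and 16.7 FPKM in JIB-04 hearts 1 and 2, against 15.6, 22.6 and 14.9 FPKM in transgenic vehicle hearts and 10.02, 8.82, 4.89 and 3.77 FPKM in wild type hearts. No transgenic heart was as low as a wild type heart, and the 2 wild type hearts of day 158 were below both of day 125. The rise in transgenic vehicle over wild type hearts was 1.41 ± 0.26 (limma adjusted p = 0.0042), with means of 17.7 ± 4.23 and 6.88 ± 3.01 FPKM (SD, n = 3 and 4).

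Myc showed the largest rise of the tested members in transgenic vehicle hearts, 1.65 ± 0.23 on the log2 scale (limma adjusted p = 0.0013), or 4.71 times the wild type mean in FPKM. Myc, the growth-promoting factor that binds DNA with MAX, was at 6.17 and 7.30 FPKM in JIB-04 hearts 1 and 2, against 4.74, 8.95 and 7.52 FPKM in transgenic vehicle hearts and 1.81, 1.02, 2.34 and 0.834 FPKM in wild type hearts. The 5 transgenic hearts were all above the 4 wild type hearts, and those of the 2 transgenic groups overlapped. The constant of 1 added before the logarithm makes the fold of a gene at this level smaller than the ratio of its FPKM.

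Btg2, an antiproliferative protein that recruits the enzymes removing poly(A) tails, was at 69.3 and 44.4 FPKM in JIB-04 hearts 1 and 2, against 33.4, 38.2 and 41.3 FPKM in transgenic vehicle hearts and 15.3, 16.5, 13.7 and 11.6 FPKM in wild type hearts. The 3 groups did not overlap. Btg2 had the smallest adjusted p of the members in transgenic vehicle against wild type hearts, with a rise of 1.38 ± 0.15 (limma adjusted p = 0.00039), with means of 37.7 ± 3.98 and 14.3 ± 2.15 FPKM (SD, n = 3 and 4). Ier2, a nuclear protein induced with Fos by serum, was at 16.9 and 9.73 FPKM in JIB-04 hearts, 11.3, 11.8 and 11.8 FPKM in transgenic vehicle hearts and 11.5, 11.4, 8.77 and 11.7 FPKM in wild type hearts. Apart from JIB-04 heart 1 its hearts lay between 8.77 and 11.8 FPKM with the groups overlapping, and transgenic vehicle minus wild type was 0.14 ± 0.15, with a 95% interval of -0.21 to 0.49 (limma adjusted p = 0.51).

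Egr1, a zinc finger factor, was higher without passing in transgenic vehicle hearts, and Nr4a1, an orphan nuclear receptor, was lower. Egr1 was at 31.2 and 7.23 FPKM in JIB-04 hearts 1 and 2, against 5.56, 7.54 and 4.35 FPKM in transgenic vehicle hearts and 1.92, 3.30, 3.92 and 4.22 FPKM in wild type hearts. Every transgenic heart was above every wild type heart, the closest pair being 4.35 and 4.22 FPKM, and JIB-04 heart 1 was 4.32 times JIB-04 heart 2. Transgenic vehicle minus wild type was 0.69 ± 0.43, with a 95% interval of -0.31 to 1.70 (limma adjusted p = 0.25), the spread being estimated over all 9 hearts. Without JIB-04 heart 1 the difference was 0.61 (limma adjusted p = 0.0695). Without JIB-04 heart 2 and transgenic vehicle heart 3, the pair with high mt-Atp6, it was 0.82 and passed (limma adjusted p = 0.00911); the adjusted p ranged from 0.00911 to 0.48 over 22 alternatives.

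Nr4a1 was the member that fell. It was at 26.1 and 9.85 FPKM in JIB-04 hearts 1 and 2, against 9.43, 12.2 and 8.27 FPKM in transgenic vehicle hearts and 55.9, 37.1, 13.9 and 20.6 FPKM in wild type hearts. The 3 transgenic vehicle hearts were below all wild type hearts, JIB-04 heart 1 lay inside the wild type range, and the wild type hearts themselves spread 4.02 times. Nr4a1 fell by 1.26 ± 0.33 in transgenic vehicle relative to wild type hearts (limma adjusted p = 0.018), with means of 9.95 ± 1.99 and 31.9 ± 18.7 FPKM (SD, n = 3 and 4). The fall passed in 17 of 22 alternatives, with adjusted p from 0.00822 to 0.177, and among the hearts of day 158 alone it was -0.70 (limma adjusted p = 0.177). It also missed the threshold without transgenic vehicle heart 1 (-0.71, limma adjusted p = 0.0824) and without wild type heart 4 (-1.25, limma adjusted p = 0.0524).

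In transgenic vehicle against wild type hearts, then, 6 of the 9 tested members passed, 5 higher (Jun, Junb, Atf3, Btg2 and Myc) and 1 lower (Nr4a1). Over all 13487 genes tested, 36% passed in either direction, 20.3% higher and 15.7% lower. The median log2 fold change of the 9 was 0.85, and that of all genes 0.05. Hearts did not overlap for 6 members that were higher and 1 that was lower, against 23.4% and 17.7% of all genes. With the JIB-04 hearts included, all 5 transgenic hearts were above all 4 wild type hearts for 6 members, against 20.4% of all genes, and below them for 0, against 15.3%. Scaling every heart to the same total moved the median of all genes by 0.185 (log2) and gave 4489 genes higher and 1009 lower, in place of 2739 and 2123. The 6 members named above passed under each of the 4 scalings tried. Among the hearts of day 158 alone 4 members passed, and Jun missed the threshold there (0.78, limma adjusted p = 0.0699). Marker sums moved with these differences: the 6 fibroblast markers together came to 475 to 643 FPKM in transgenic vehicle hearts and 240 to 303 FPKM in wild type hearts, the 6 endothelial markers to 105 to 135 and 185 to 195 FPKM, the 6 smooth muscle and pericyte markers to 107 to 149 and 180 to 214 FPKM, and the 8 cardiomyocyte markers to 15350 to 18100 and 19860 to 23650 FPKM. No fibroblast, endothelial or cardiomyocyte marker was below 1 FPKM in any heart. Of the smooth muscle and pericyte markers, 1 was below 1 FPKM in each wild type heart and in transgenic vehicle heart 3. The part of the markers in the gene differences was not tested.

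**Figure D2:**
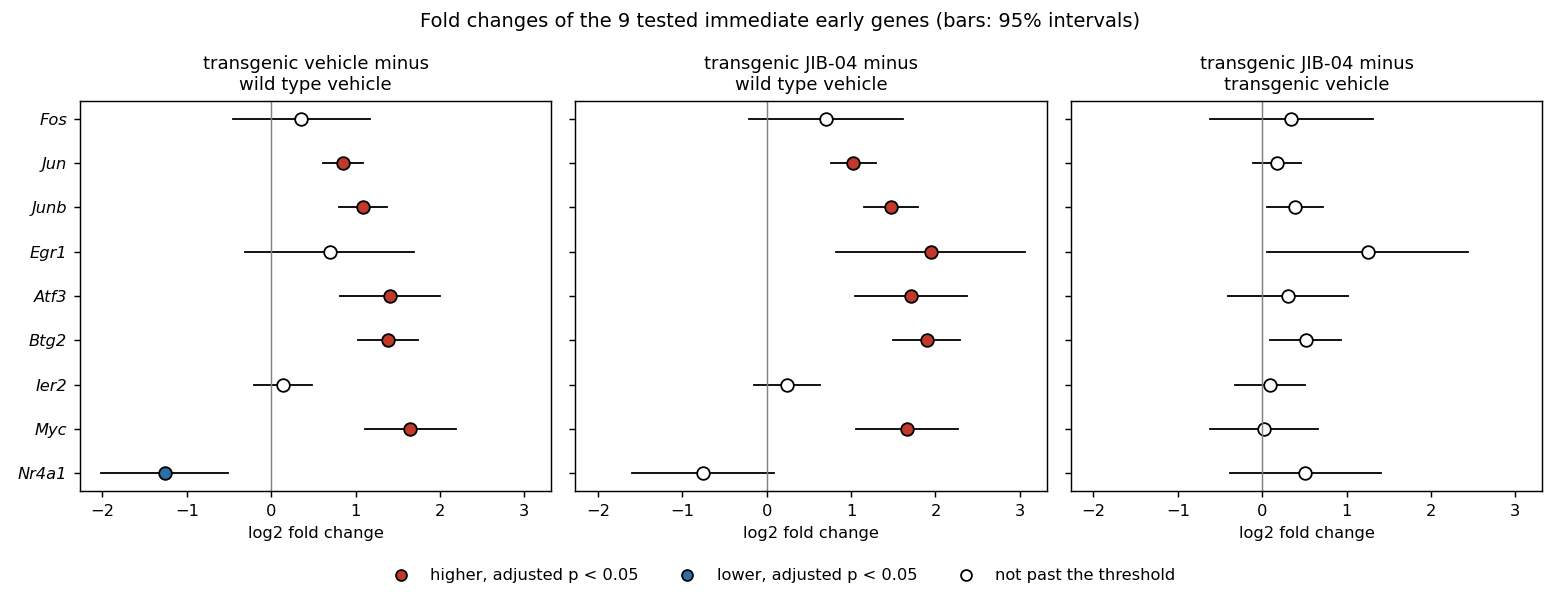
Log2 fold change of each of the 9 tested genes (points) with its 95% interval (bars) in the 3 comparisons of groups, from limma. In transgenic vehicle against wild type hearts 5 genes are past the threshold above 0 and Nr4a1 below it, in JIB-04 against wild type hearts 6 are above, and in JIB-04 against transgenic vehicle hearts none is past it.

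JIB-04 was not associated with a call for any member. All 9 tested members had a point estimate above 0 in JIB-04 relative to transgenic vehicle hearts, with a median of 0.35 against -0.01 for all genes, and 0 of 9 passed in limma, against 0.00741% of all genes (1 gene). At an unadjusted p under 0.05 there were 3, against 3.29% of all genes: Egr1 at 1.25 ± 0.52, Btg2 at 0.52 ± 0.18 and Junb at 0.39 ± 0.15, each with a limma adjusted p of 0.99. Hearts of the 2 groups did not overlap for Jun, Junb and Btg2, which were higher in both JIB-04 hearts, against 5.55% of all genes. The 95% intervals were wide, from -0.62 to 1.31 for Fos, from 0.06 to 2.44 for Egr1, from -0.41 to 1.01 for Atf3 and from -0.39 to 1.41 for Nr4a1. They were narrower for Jun, from -0.11 to 0.45, and for Junb, from 0.05 to 0.72.

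The positive estimates rested largely on the day 125 hearts, where JIB-04 heart 1 was high and the lone vehicle heart was low for some members. Transgenic vehicle heart 1 was the lowest of its group for 5 of the 9 tested members, against 33.6% of all genes. It was the highest for 1, against 28.2%, and its median deviation from the group mean was -0.15 (log2). Its Fos was 1.81 FPKM, against 3.53 and 3.59 FPKM in transgenic vehicle hearts 2 and 3. Set against the 1 vehicle heart of the same day, 125, all 9 tested members were higher in JIB-04 heart 1, with a median difference of 1.004 (log2), while 59.7% of all genes were higher and their median was 0.04. Set against the mean of the 2 vehicle hearts of day 158, JIB-04 heart 2 was higher for 4 members and lower for 5, with a median of -0.02, while 40.7% of all genes were higher and their median was -0.05. In FPKM, JIB-04 heart 1 had 5.62 times the Egr1, 4.03 times the Fos, 2.76 times the Nr4a1 and 2.07 times the Atf3 and Btg2 of transgenic vehicle heart 1. JIB-04 heart 2 had 1.22 times the Egr1, 0.557 times the Fos, 0.965 times the Nr4a1, 0.890 times the Atf3 and 1.12 times the Btg2 of the mean of transgenic vehicle hearts 2 and 3. Jun was alone in moving by nearly the same ratio on both days, 1.11 and 1.13. Without JIB-04 heart 1, Egr1 in JIB-04 minus transgenic vehicle hearts was 0.19 in place of 1.25, Btg2 was 0.27, and Fos, at -0.50, and Ier2, at -0.21, were below 0.

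The change of the drug difference between days was itself tested. It passed in limma for 0 of the 9 members and for 0% of all genes, each member at an adjusted p of 1. At an unadjusted p under 0.05 there were 6 of 9, against 3.00% of all genes: Fos at -2.17 ± 0.40, Egr1 at -2.01 ± 0.52, Nr4a1 at -1.40 ± 0.54, Atf3 at -1.14 ± 0.40, Btg2 at -0.88 ± 0.22 and Ier2 at -0.80 ± 0.27 (day 158 minus day 125). This comparison holds 1 JIB-04 heart on each day and 1 transgenic vehicle heart on day 125. Its standard errors come from the groups with 2 hearts on a day, and the lone hearts are assumed to vary like them. It restates the day 125 difference given above. A high JIB-04 heart 1, a low transgenic vehicle heart 1 and the day cannot be told apart.

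**Figure D3:**
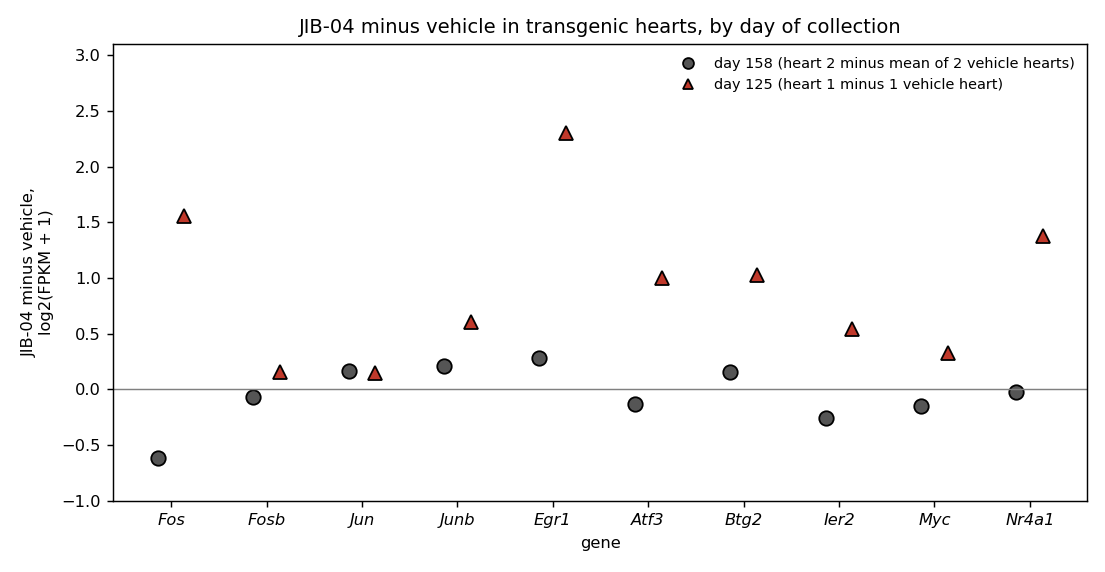
Difference in log2(FPKM + 1) between the JIB-04 heart and the vehicle hearts of the same day among transgenic hearts, with circles for day 158 (1 heart minus the mean of 2) and triangles for day 125 (1 heart minus 1). Triangles lie at 0.14 or higher for the 9 tested genes and at 2.30 for Egr1, while circles lie between -0.61 and 0.28.

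JIB-04 heart 1 was the highest of all 9 hearts for 7 of the 9 tested members, Fos, Jun, Junb, Egr1, Atf3, Btg2 and Ier2, against 12.1% of all genes. Among the 5 transgenic hearts it was the highest for 8 of the 9, all but Myc, against 24.6% of all genes. Some other values were also high in this heart, though the neutrophil sum was higher still in transgenic vehicle heart 3. Hspa1a, an inducible heat shock gene, was at 19.6 and 11.3 FPKM in JIB-04 hearts 1 and 2, against 12.1, 13.4 and 6.67 FPKM in transgenic vehicle hearts and 4.13, 2.10, 2.18 and 0.985 FPKM in wild type hearts. The 5 neutrophil markers together came to 19.5 and 4.63 FPKM in JIB-04 hearts 1 and 2, against 3.79, 9.17 and 31.8 FPKM in transgenic vehicle hearts and 1.95 to 5.63 FPKM in wild type hearts. Csf3r, Cxcr2 and Ly6g of that list were below 1 FPKM in every heart. The 4 erythroid markers came to 7287 and 4959 FPKM in JIB-04 hearts 1 and 2, the former the highest of the 9 hearts. They came to 3261, 4558 and 6069 FPKM in transgenic vehicle hearts and 1947 to 4808 FPKM in wild type hearts. The part of these values in the members' levels was not tested.

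**Figure D4:**
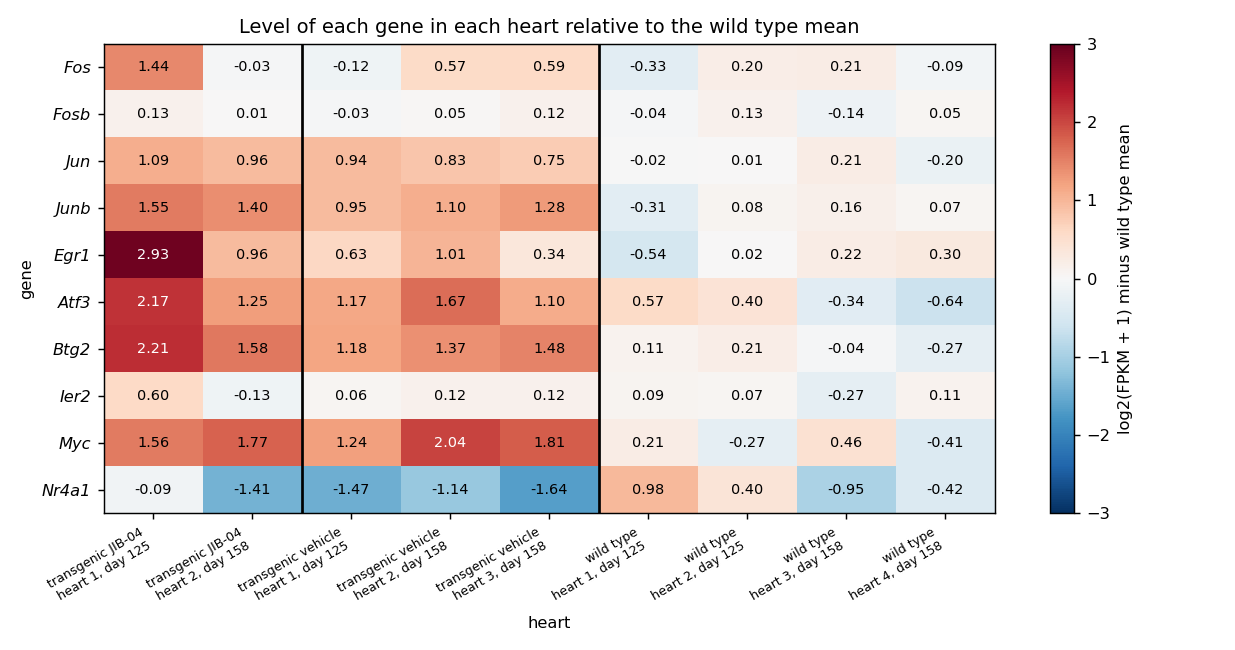
Each cell gives log2(FPKM + 1) of a gene in 1 heart minus the wild type mean, with hearts in columns and genes in rows. JIB-04 heart 1 reads 2.93 for Egr1 and 1.44 for Fos where JIB-04 heart 2 reads 0.96 and -0.03, and Nr4a1 reads 0.98 and -0.95 within the wild type hearts.

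Against wild type, the JIB-04 hearts had 6 of 9 members higher and 0 lower in limma, where 32.3% of all genes passed, 17.4% higher and 14.8% lower. These were Btg2 at 1.90 ± 0.17 (limma adjusted p = 0.00019), Junb at 1.47 ± 0.14 (limma adjusted p = 0.00022), Jun at 1.02 ± 0.12 (limma adjusted p = 0.00051), Myc at 1.67 ± 0.26 (limma adjusted p = 0.0024), Atf3 at 1.71 ± 0.29 (limma adjusted p = 0.0034) and Egr1 at 1.94 ± 0.49 (limma adjusted p = 0.018). Hearts did not overlap for the same 6, against 28.4% of all genes. Nr4a1 stood at -0.75, with a 95% interval of -1.60 to 0.09 (limma adjusted p = 0.15). The wild type hearts are shared with the comparison of the vehicle hearts, so the 2 sets of values are not independent. Without JIB-04 heart 1, Egr1 was 0.80 (limma adjusted p = 0.148) while Jun, Junb, Atf3, Btg2 and Myc passed, and the Egr1 adjusted p ranged from 0.000472 to 0.266 over 22 alternatives. Without JIB-04 heart 2, where the 1 heart left is assumed to vary like the others, Fos passed at 1.62 (limma adjusted p = 0.0137, with a range of 0.011 to 0.799 over 21 alternatives). Among the hearts of day 158 alone, which leaves JIB-04 heart 2, only Junb and Btg2 passed.

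The day of collection gave no call. Between day 158 and day 125, with group in the fit, 0 of 9 members passed in limma, against 0.378% of all genes. At an unadjusted p under 0.05 there were 2, Nr4a1 at -0.91 ± 0.29 and Atf3 at -0.59 ± 0.23 (limma adjusted p = 0.15 and 0.22), against 18.8% of all genes. In wild type hearts, the 2 hearts of day 158 lay below the 2 of day 125 for Atf3, Btg2 and Nr4a1, against 27.1% of all genes, and above them for Egr1, against 19.2%. The difference between transgenic vehicle and wild type hearts changed with day for 0 of 9 members in limma, against 0.00741% of all genes. At an unadjusted p under 0.05 there were 3, against 2.97% of all genes: Nr4a1 at 1.46 ± 0.46, Atf3 at 1.19 ± 0.34 and Btg2 at 0.56 ± 0.19 (day 158 minus day 125, each with a limma adjusted p of 0.999). These values rest on 1 transgenic vehicle heart of day 125, which is assumed to vary like the groups with 2 hearts on a day.

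The members differed widely in how steady they were from heart to heart. The residual SD on the log2 scale, after group and day, was 0.71 for Egr1, 0.57 for Fos, 0.53 for Nr4a1, 0.41 for Atf3 and 0.37 for Myc, above that of 92.5% or more of the 13487 genes. Within groups, with day left in, the SD of Egr1 was 1.39 in JIB-04, 0.34 in transgenic vehicle and 0.38 in wild type hearts. For Fos these were 1.04, 0.40 and 0.26, and JIB-04 heart 1 was the highest heart for both genes. The residual SD was 0.23 for both Btg2 and Ier2 (percentiles 78.6 and 77.3 of all genes) and 0.18 for Junb (percentile 62.5). Jun, at 0.14 (percentile 47.4), was close to the median of 0.15 over all genes. Jun and Junb, with the steadiest values, thus gave narrow intervals at the same number of hearts, while Egr1 and Fos spanned 16.3-fold and 5.07-fold over the 9 hearts.

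Genes with the most similar course over the 9 hearts were sought by the root mean square of the difference between centred log2 values, over 13181 genes, with the members themselves left out of the ranking. Egr1 was closest to Egr2 (0.52), a zinc finger factor of the same family, and Cyr61 (0.52), a secreted matrix protein and itself an immediate early gene. Egr2 was at 3.56 and 1.48 FPKM in JIB-04 hearts 1 and 2, against 0.861, 2.50 and 0.280 FPKM in transgenic vehicle hearts and 0.400, 0.694, 0.174 and 0.0981 FPKM in wild type hearts. Like Egr1, it was highest in JIB-04 heart 1, though at a lower level. Cyr61 was at 124 and 76.8 FPKM in JIB-04 hearts, against 61.2, 79.8 and 50.9 FPKM in transgenic vehicle hearts and 19.0, 27.2, 24.6 and 19.3 FPKM in wild type hearts. It too was highest in JIB-04 heart 1, and all transgenic hearts were above all wild type hearts.

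Jun was closest to Sulf1 (0.07), an extracellular heparan sulfatase, and Etv5 (0.08), an ETS factor. Junb was closest to Prelp (0.15), a matrix proteoglycan, and Gm13054 (0.16). Among genes that are no members, Mgp, the matrix Gla protein, was second for both Atf3 (0.32, after Gm1840 at 0.31) and Btg2 (0.21, after Rgs11 at 0.21), while the member Btg2 was nearer to Atf3 than either (0.30). Myc was closest to Trim47 (0.22) and to Ppp1r15a (0.23), a stress-induced regulator of protein phosphatase 1. Ier2 was closest to Gm10123 (0.10) and 0610007P14Rik (0.10), and Nr4a1 to Gm17257 (0.40) and AA672651 (0.43). A small distance comes easily to a gene that varies little, and the values come from the same 9 libraries of 2 genotypes, so these are descriptions of likeness only.

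Related genes were read from fixed lists, beside which the shares for all genes above apply. Among the other AP-1 subunits, 4 of 8 tested were higher in transgenic vehicle than in wild type hearts (20.3% of all genes). Of the 8, 0 were lower (15.7% of all genes), and the median was 0.46. The largest were Mafk at 1.51 ± 0.14, Maff at 1.14 ± 0.31 and Fosl2 at 0.98 ± 0.14 (limma adjusted p = 0.00015, 0.024 and 0.0013). Mafk, a small MAF protein without an activation domain, was at 55.8 and 53.4 FPKM in JIB-04 hearts, against 48.7, 50.8 and 62.8 FPKM in transgenic vehicle hearts and 21.5, 19.9, 18.4 and 14.7 FPKM in wild type hearts. Its 2 transgenic groups overlapped and lay well above the wild type hearts. Among the other EGR and NR4A family genes, 1 of 6 passed, a smaller share than the 36% of all genes. It was Nab2, a corepressor of EGR1, at 0.84 ± 0.08 (limma adjusted p = 0.00022).

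Of 31 other immediate early transcripts, 17 were higher in transgenic vehicle than in wild type hearts (20.3% of all genes). A further 3 were lower (15.7% of all genes), and the median was 0.47. The largest was Ctgf, a matricellular growth factor, at 3.95 ± 0.20 (limma adjusted p = 9.1e-06). It was at 502 and 452 FPKM in JIB-04 hearts, against 359, 451 and 451 FPKM in transgenic vehicle hearts and 27.4, 27.6, 33.8 and 18.0 FPKM in wild type hearts. Hbegf, a membrane-bound EGF receptor ligand, followed at 2.56 ± 0.14 and Gadd45g, a stress-inducible growth arrest gene, at 1.75 ± 0.28 (limma adjusted p = 1.6e-05 and 0.0022). Of the BTG and TOB family, relatives of Btg2, 2 of 4 were higher, against 20.3% of all genes. They were Tob1 at 0.72 ± 0.13 and Btg1 at 0.57 ± 0.11 (limma adjusted p = 0.0038 and 0.0043).

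Upstream activators and brakes held calls in both directions, as did all genes, of which 20.3% were higher and 15.7% lower. None of the lists that follow had a larger share passing than the 36% of all genes. Of 15 SRF, ternary complex and CREB genes, 3 were higher and 2 lower, with a median of 0.08. Crem, a cAMP response element modulator, was at 0.78 ± 0.19, Atf1 at 0.49 ± 0.08 and Elk3, a ternary complex factor that can repress, at -0.41 ± 0.09 (limma adjusted p = 0.015, 0.0018 and 0.0090). Of 20 MAP kinases and their kinases, 3 were higher and 2 lower, with a median of -0.01. Map2k6, which activates p38, was at -1.19 ± 0.21 and Mapk14, p38 alpha itself, at -0.65 ± 0.07 (limma adjusted p = 0.0035 and 0.00043). Mapk8, which encodes a JNK itself, was at 0.33 ± 0.08 (limma adjusted p = 0.011). Of 15 genes of transcript decay and MAP kinase feedback, 4 were higher and 1 lower, with a median of 0.18. Zfp36l1, which directs decay of AU-rich transcripts, was at 1.20 ± 0.14, and Dusp4 and Dusp5, nuclear phosphatases of MAP kinases, at 0.92 ± 0.22 and 0.77 ± 0.10 (limma adjusted p = 0.00048, 0.012 and 0.00072). Of 10 MYC network partners 0 passed in limma and 1 was at an unadjusted p under 0.05, with a median of -0.03. Its most abundant members were Mxd4 at 0.16 ± 0.13 and Max at -0.13 ± 0.11 (limma adjusted p of 0.39 each).

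In transgenic vehicle against wild type hearts, 0 of 8 heat shock genes that can also respond to handling were lower (15.7% of all genes). Their median was 0.49, and 4 of the 8 were higher (20.3% of all genes). They were led by Hspa1a at 1.93 ± 0.28, Hspa1b at 1.44 ± 0.36 and Hsp90aa1 at 0.86 ± 0.16 (limma adjusted p = 0.0013, 0.015 and 0.0038). Handling was not recorded per heart, so its part in the difference between genotypes was not tested. Between JIB-04 and transgenic vehicle hearts, 0 of the 117 tested genes of these lists passed in limma, and 7 were at an unadjusted p under 0.05, against 3.29% of all genes. JIB-04 heart 1 was the highest of the 9 hearts for 4 of the 8 heat shock genes (Hspa1a, Hspa1b, Hspa8 and Hspb1), for 4 of the 15 decay and feedback genes (Dusp1, Spry2, Spry4 and Zfp36), for 6 of the 31 other immediate early transcripts (Arc, Csrnp1, Ctgf, Cyr61, Ier5 and Rhob) and for 2 of the 6 EGR and NR4A relatives (Egr2 and Nr4a2). It was also the highest for 1 of the 8 other AP-1 subunits (Fosl2), 1 of the 20 MAP kinases and their kinases (Map2k3) and 1 of the 4 BTG and TOB genes (Btg1). It was the highest for 0 of the 15 activators and 0 of the 10 MYC partners. The share over all genes was 12.1%.

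**Figure D5:**
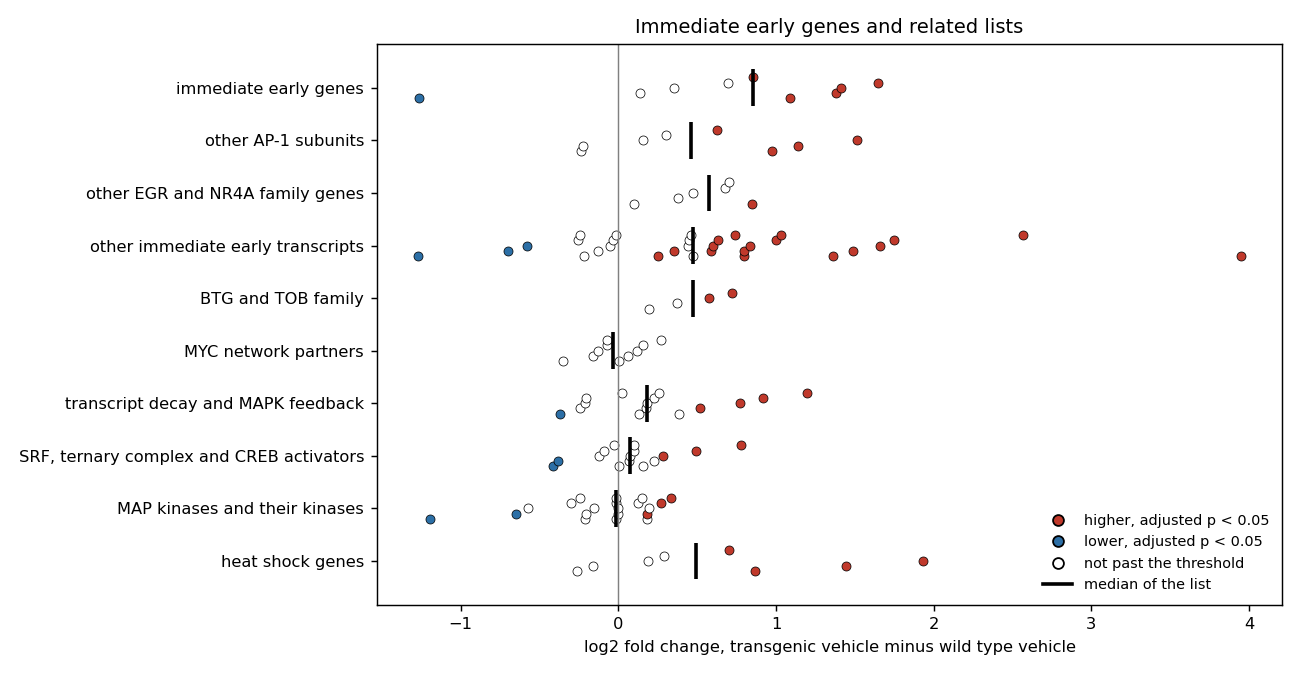
Log2 fold change of every tested gene of each list in transgenic vehicle minus wild type hearts, with filled points for limma adjusted p under 0.05 and a bar at the list's median. The members have a median of 0.85 and the other immediate early transcripts of 0.47, while MAP kinases and MYC partners centre on 0.

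Positions are given in GRCm38, as the loci in the files give them. Fos spans chromosome 12 from 85473890 to 85477273, Fosb chromosome 7 from 19302721 to 19310045, Jun chromosome 4 from 95049034 to 95052222 and Junb chromosome 8 from 84976909 to 84978748. Atf3 and Btg2 lie on chromosome 1, from 191170296 to 191218039 and from 134075170 to 134079120, and Ier2 on chromosome 8 from 84661331 to 84662852. Myc and Nr4a1 lie on chromosome 15, from 61985341 to 61990374 and from 101266846 to 101274792, and Egr1 on chromosome 18 from 34859823 to 34864984. Each value is for the whole gene, exons combined. Within the loci the files give, Jun shares exon positions with Junos, and an intron of Atf3 holds Gm24748, which was listed at 0 in every heart. Prdx2, on the opposite strand, shares exon positions with a longer GENCODE model of Junb and lies outside the Junb locus of the files.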

How the data were processed

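Poly(A) RNA of 9 mouse hearts was sequenced. The labels gave each heart's group, replicate number and age; they put 4 hearts at day 125, although the series text has dosing run to day 158. Trizol was used for extraction and the library kit was non-directional, per the labels' protocols. The GRCm38 genome and the tools Cufflinks 2.2.1, GATK 4.1.2, Picard and STAR 2.7.1a are named, without their roles, per the submitters' processing notes. The annotation is not given in the sources used here. The deposited values are log2 FPKM, per the file headers. Which constant preceded the logarithm is not given in the sources used here; 1 was taken, since each file's minimum was exactly 0. No counts are given, so depth is known only as relative steps between low values, and no interval for counting error is given.

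FPKM were recovered as 2 to the power of the value, minus 1, and SDs are over hearts. A gene was tested where 2 or more hearts reached 1 FPKM (13487 genes). limma 3.58.1 (R 4.3.3; lmFit, eBayes with a trend) was run on log2(FPKM + 1) of all 9 hearts, with group means and a day term. P-values were adjusted by Benjamini-Hochberg over all genes tested, with a threshold of 0.05. Changes between days were tested in a fit with a mean for each group and day. Fold changes are on the log2(FPKM + 1) scale, which understates changes of low genes. The fit was tested on simulated data. All 10 members are named. From each list the text names up to 3 genes that passed in transgenic vehicle against wild type hearts, by size, or the 2 most abundant where none passed. Likeness was computed over genes other than members that were above 0 in every heart. That of Fos is not reported here. List genes that were highest in JIB-04 heart 1 were named after their values were seen. The members and lists were chosen with earlier results of these data known. Promoters are those of RefSeq. Alternatives were other constants, filters and scalings, no term for day, a replicate term, only the compared groups, only day 158, and each heart left out.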

Additional observations from a re-analysis of the deposited data

Results flagged for a closer look

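Ier2 in the 4 wild type hearts is given here because 1 heart lay far from the others. Wild type heart 3 was at 8.77 FPKM while wild type hearts 1, 2 and 4 were at 11.5, 11.4 and 11.7 FPKM, and the gap to the nearest heart made up 0.904 of the range of the group on the log2 scale, above the 95% critical value of 0.829 for 4 samples. It was 1 of 10 genes examined in this way in the wild type group, where chance gives about 1 in 20. The smaller groups of 3 and 2 hearts were not examined. Leaving wild type heart 3 out brought Ier2 to no call in any comparison.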

How the results depend on the processing

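No member that passed changed sign under any alternative. In transgenic vehicle against wild type hearts 4 to 7 members passed in place of 6, and 5 to 6 with 1 heart left out. Junb, Btg2 and Myc passed throughout. In JIB-04 against wild type hearts 5 to 7 passed in place of 6 with 1 heart left out, and 2 (Junb and Btg2) among the hearts of day 158 only, where a single JIB-04 heart is assumed to vary like the others. In the remaining comparisons 0 passed under every alternative run. Without transgenic vehicle heart 1 neither change between days had a value, nor did the drug's without either JIB-04 heart.

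Replicate numbers are shared between groups, and same-numbered transgenic vehicle and wild type hearts had deviations correlated at 0.0835, 0.0188 and 0.178. With the JIB-04 hearts the same-numbered values were 0.432 and -0.0719 for transgenic vehicle and 0.184 and -0.186 for wild type. Not every pair was over 0.1, so the numbers were not taken to pair hearts. The deviations still include the day, and those of the 2 JIB-04 hearts are opposite by construction, so the check is a weak one. With a replicate block 4 members passed in transgenic vehicle and 4 in JIB-04 against wild type hearts, and over all genes 2458 in place of 4862 and 1542 in place of 4354. On day 158 only, these counts over all genes were 979 and 444, and without JIB-04 heart 1 or 2 the JIB-04 count was 2186 or 1720. Without a filter on low values Nr4a1 (limma adjusted p = 0.0668, transgenic vehicle against wild type) and Egr1 (0.0669, JIB-04 against wild type) missed the threshold. With only the compared groups, Nr4a1 was lower in JIB-04 than in wild type hearts (limma adjusted p = 0.03; range 0.03 to 0.573). Scaling to equal totals changed the calls in JIB-04 against wild type hearts to 2920 higher and 1070 lower, in place of 2353 and 2001, and quantile scaling gave 2260 higher and 2521 lower in transgenic vehicle hearts. Depth is unknown in reads.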
